A study of Mus musculus with 22 samples.

Results

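The miR-465 family of mouse was described here in round spermatids, the haploid germ cells that follow meiosis, from wild-type (WT) mice and from 2 GRTH mutants. The family was taken as mmu-miR-465a-5p, mmu-miR-465a-3p, mmu-miR-465b-5p, mmu-miR-465b-3p, mmu-miR-465c-5p and mmu-miR-465c-3p, which are 6 of 1966 miRNA names in the table of counts, and the prefix for mouse is left out below. The 6 names hold 4 different mature sequences, called products below, because the 3p arm of all 3 hairpins is the same sequence. GRTH, also called DDX25, is a testicular RNA helicase of the DEAD-box family that male germ cells need in order to complete spermiogenesis. Knock-out (KO) mice lack GRTH, and knock-in (KI) mice carry a mutant human GRTH gene and, per the study, lack the phosphorylated form of the protein.

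Small RNA was sequenced in 22 libraries of round spermatids isolated from testes of mice aged 75 to 85 days. By the labels, 1 experimental batch held 5 WT and 5 KO libraries, called batch 1 here, and the other, batch 2, held 6 WT and 6 KI libraries. The methods of the study differ from the labels, since they call the KI comparison the first batch and state fewer libraries for it. KO and KI were each compared with the WT of their own batch, so that these comparisons share no control library. The cells came from sedimentation through a density gradient, which enriches round spermatids but does not sort them by a marker. The study reports that it checked the purity of the fractions by DAPI staining under a microscope. It also states a purity for the round spermatids used for small RNA. The labels do not say that each library came from a separate animal, so p-values measure the spread between these libraries, part of which may be technical. The miRNA table does not hold the GRTH transcript, and the genotypes could not be checked against it.

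A miRNA hairpin is cut by Drosha and then by Dicer into a duplex of a 5p and a 3p strand, and one of these is loaded into an Argonaute protein. Bases 2 to 8 of the loaded strand, the seed, take the largest part in pairing with target transcripts. The miR-465 hairpins lie in an X-linked group of fast-evolving miRNA genes between Slitrk2 and Fmr1, which is known for expression in the testis and mainly in germ cells.

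The mature sequences are printed because they decide which names can be told apart by their reads. They are from RefSeq (GRCm38.p6), run 5′ to 3′, and carry the seed in capitals.
miR-465a-5p: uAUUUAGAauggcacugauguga
miR-465b-5p: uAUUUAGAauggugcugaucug
miR-465c-5p: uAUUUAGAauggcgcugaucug
miR-465a-3p, miR-465b-3p and miR-465c-3p: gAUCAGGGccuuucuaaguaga
The 5p products share the seed AUUUAGA and differ in the middle and at the end. Counted from 1 at the 5′ end, miR-465c-5p differs from miR-465a-5p by A14G and G20C. miR-465b-5p carries C13U, A14G and G20C against miR-465a-5p, and C13U alone against miR-465c-5p. miR-465a-5p is 23 bases long and also has 1 base more at its 3′ end than the others, at 22 bases each. The 3p product has another seed, AUCAGGG, so the 2 arms of 1 hairpin belong to different seed families.

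One further name begins with miR-465 and is not a member. It is shown because its 5p strand is so close to miR-465a-5p.
miR-465d-5p: uAUUUAGAaugguacugauguga
miR-465d-3p: uGAUCAGGgccuuucugaguaa
miR-465d-5p has the family seed and differs from miR-465a-5p by C13U alone. Among the 1675 of 1966 names with a RefSeq sequence, it was the only other name with either seed. It held 25 counts over all 22 libraries and 0 to 5 counts in each, against 46273 counts of miR-465a-5p. That is 0.054% of the miR-465a-5p count, so reads with this 1-base change were nearly absent. miR-465d-3p, whose seed is GAUCAGG because its sequence starts 1 base earlier, held 26 counts. Counts this low allow no comparison between genotypes. A count of 0 in a library allows up to 3 counts, and this limit covers counting error only, since reads and not molecules were counted.

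The members came from 5 hairpin loci on chromosome X, all on the minus strand, within 13157 bases of GRCm38. Mir465, the miR-465a hairpin, had its 5p arm at chrX:66839099-66839121 and its 3p arm at chrX:66839063-66839084. The miR-465b arms lay at chrX:66835811-66835832 (5p) and chrX:66835774-66835795 (3p) in Mir465b-2, and at chrX:66829249-66829270 (5p) and chrX:66829212-66829233 (3p) in Mir465b-1. The miR-465c arms lay at chrX:66832566-66832587 (5p) and chrX:66832527-66832548 (3p) in Mir465c-2, and at chrX:66826004-66826025 (5p) and chrX:66825965-66825986 (3p) in Mir465c-1. In the direction of transcription the order was a, b, c, b, c, and the 2 copies of miR-465b and of miR-465c were each spaced by 6562 bases. None of these loci lay in another annotated gene, exon, intron or UTR. The nearest protein-coding gene, Slitrk2 at chrX:66649318-66661393, ended 164572 bases away.

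A read that fits several loci was counted at each of them, so counts by name hold the same reads more than once. The miR-465b and miR-465c names, with 2 loci each, had an even count in 22 of 22 libraries. The single-locus names had an even count in 13 (miR-465a-5p) and 14 (miR-465a-3p) libraries. After division by the number of loci, the 3p counts of miR-465b and miR-465c differed from those of miR-465a by at most 0.021% and 0.458% in any library. The 3 names are therefore given once, as miR-465-3p with the counts of miR-465a-3p, and reads of this strand cannot be assigned to 1 of the 5 loci. Levels are given in CPM per locus, the deposited count divided by the number of loci and by the scaled library total in the usual CPM unit. Since a read was counted at each locus it fits, this division counts it about once. A level is thus the reads of a product pooled over its loci, and not the output of 1 hairpin. The pool holds 5 loci for miR-465-3p, 2 each for miR-465b-5p and miR-465c-5p, and 1 for miR-465a-5p.

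miR-465-3p, which pools the 3p reads of all 5 loci, made up most of the family reads. For these shares the counts were divided by the number of loci. The WT libraries of batch 1 held a mean of 67.8% ± 1.83 (SD, n = 5) as miR-465-3p, and the KO libraries 65.9% ± 1.98 (SD, n = 5). In batch 2 the mean share of miR-465-3p was 58.8% ± 1.21 (SD, n = 6) for WT and 54.9% ± 1.89 (SD, n = 6) for KI. miR-465b-5p had the lowest mean share in each group, between 7.99% and 10.1%, and miR-465a-5p and miR-465c-5p lay between 10.4% and 18.8%. By mean level, miR-465-3p ranked 13 of 1966 names in batch 1 and 23 in batch 2. Of these names, 1134 had a count above 0 in any library. The 5p products ranked between 64 and 94. Counts per library ran from 4131 to 14478 for miR-465-3p and from 596 to 3923 for miR-465a-5p. The 6 names took 5.09% ± 0.268 (SD, n = 5) of all counts in WT of batch 1 and 4.36% ± 0.21 (SD, n = 5) in KO. In batch 2 the share was 2.60% ± 0.0834 (SD, n = 6) for WT and 2.26% ± 0.078 (SD, n = 6) for KI. These shares use deposited counts, which hold many family reads more than once. After division by the number of loci, with the 3p product taken once, the family share was lower. Batch 1 then had 1.76% ± 0.0972 for WT against 1.52% ± 0.0798 for KO (SD, n = 5 each). Batch 2 had 0.943% ± 0.0320 for WT against 0.842% ± 0.0323 for KI (SD, n = 6 each).

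The order of the 5p products was not the same in all groups. In both WT groups the levels of miR-465a-5p and miR-465c-5p overlapped, and both lay above all miR-465b-5p values of the group. In KO, miR-465c-5p lay above miR-465a-5p in every library, and miR-465a-5p overlapped with miR-465b-5p. In KI, miR-465c-5p also lay above miR-465a-5p within every library, with a lowest ratio of 1.098. Their ranges over the group overlapped, and both stayed above miR-465b-5p. These are levels of reads, and 2 sequences can be ligated and amplified with unequal efficiency. They also pool 2 loci each for miR-465b-5p and miR-465c-5p against 1 for miR-465a-5p, so this is not an order per hairpin.

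**Figure D1:**
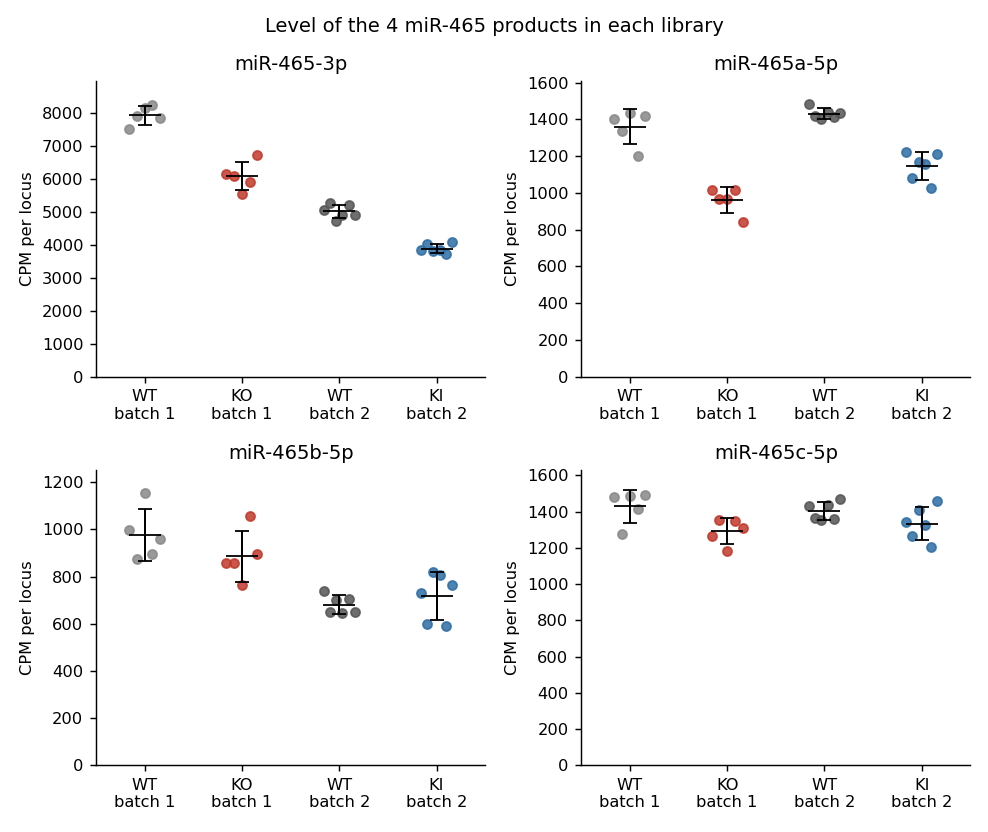
Level in CPM per locus (y axis, linear, from 0) of each product in WT and KO of batch 1 (5 libraries each) and WT and KI of batch 2 (6 libraries each). Points are libraries, the bar is the mean and the whiskers are 1 SD. miR-465-3p and miR-465a-5p are lower in every KO and KI library than in every WT library of the same batch, and miR-465b-5p and miR-465c-5p overlap.

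Totals of counts over all names ran from 559957 to 1081333 in batch 1 and from 2067322 to 3239357 in batch 2. Between KO and WT, 71 names were called higher and 69 lower of 334 tested, and between KI and WT 70 higher and 77 lower of 387 tested. Calls were made with the edgeR quasi-likelihood test at a Benjamini-Hochberg adjusted p below 0.1, after scaling by the trimmed mean of M values. With library totals as the only scaling, the calls were 101 higher and 44 lower in KO and 96 higher and 53 lower in KI. That scaling moved the median log2 fold change of all names from 0.01 to 0.13 in KO and from 0.00 to 0.09 in KI.

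The first question was how the family differed between round spermatids without GRTH and WT. miR-465-3p and miR-465a-5p were lower in KO, by 21.9% and 27.9% of their WT levels. miR-465b-5p and miR-465c-5p did not pass the test. Thus 2 of the 4 products were called lower and 0 higher, against a background of 41.9% of all names called, 20.7% lower and 21.3% higher. The deposited names gave 4 of 6 called lower, since the 3p product is listed 3 times.

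miR-465-3p was at 7519, 7923, 8155, 8243 and 7840 CPM per locus in the WT libraries of batch 1. In KO it was at 6147, 6097, 5548, 5925 and 6742 CPM per locus. The highest KO library lay below the lowest WT library. This gave a log2 fold change of −0.36 with a standard error (SE) of 0.061 and an adjusted p of 0.00183 (edgeR). The miR-465b-3p and miR-465c-3p names gave the same log2 fold change of −0.36. Among all names tested, 12% were lower in KO without overlap between the groups.

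miR-465a-5p, the strand with the AUUUAGA seed from the first hairpin of the array, was at 1403, 1338, 1437, 1203 and 1417 CPM per locus in WT. In KO it was at 1014, 965, 967, 1018 and 842 CPM per locus. All KO libraries lay below all WT libraries. The fitted log2 fold change was −0.47 (SE 0.079, edgeR adjusted p = 0.00183). Libraries WT replicate 4 and KO replicate 5 were the lowest of their groups. Without KO replicate 5 or any other single library, the log2 fold change stayed between −0.51 and −0.43 and the call was kept.

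miR-465b-5p was at 996, 874, 1154, 896 and 959 CPM per locus in WT and at 856, 858, 763, 1059 and 894 CPM per locus in KO. The groups overlapped, with KO replicate 4 above 4 of the 5 WT libraries. The fitted log2 fold change was −0.11 (SE 0.1, edgeR adjusted p = 0.392), and its interval of 2 SE on either side ran from −0.31 to 0.09.

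miR-465c-5p was at 1481, 1275, 1489, 1414 and 1492 CPM per locus in WT and at 1267, 1353, 1185, 1351 and 1310 CPM per locus in KO. Only WT replicate 2 lay within the range of KO. The log2 fold change was −0.12 (SE 0.066, edgeR adjusted p = 0.181), with an interval from −0.25 to 0.01. It passed the threshold without WT replicate 2, with a log2 fold change of −0.16 and an adjusted p of 0.0893 (edgeR), and with all 4 groups in 1 fit, with −0.15 and an adjusted p of 0.095. Over the other settings it did not pass.

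The second question was how KI round spermatids differed from WT. miR-465-3p and miR-465a-5p were again lower than WT, by 21.3% and 19%, and the other 5p products did not pass the test. This was 2 of 4 products called lower and 0 higher, against a background of 38% of all names called, 19.9% lower and 18.1% higher. By deposited name it was again 4 of 6 lower.

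miR-465-3p had a lowest value of 4739, a median of 4985 and a highest value of 5284 CPM per locus in WT of batch 2. In KI the lowest was 3729, the median 3850 and the highest 4082 CPM per locus. The KI and WT libraries did not overlap, which held, with KI lower, for 8.79% of all names tested. On the log2 scale the fold change was −0.34 (SE 0.045, edgeR adjusted p = 7.31e-05).

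miR-465a-5p had a lowest value of 1404, a median of 1425 and a highest value of 1486 CPM per locus in WT. In KI the lowest was 1028, the median 1163 and the highest 1222 CPM per locus. Every KI library was again below every WT library, and the SD was 75.3 in KI against 29.7 in WT. The log2 fold change was −0.30 (SE 0.054, edgeR adjusted p = 0.00105).

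miR-465b-5p ran from 646 through a median of 675 to 738 CPM per locus in WT and from 591 through 749 to 819 CPM per locus in KI. The KI libraries spread over a range that held all WT libraries. On the log2 scale the fold change was 0.10 (SE 0.086, edgeR adjusted p = 0.415), with an interval from −0.08 to 0.27.

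miR-465c-5p ran from 1353 through a median of 1396 to 1470 CPM per locus in WT and from 1206 through 1334 to 1458 CPM per locus in KI. The groups overlapped over most of their range. The log2 fold change was −0.05 (SE 0.055, edgeR adjusted p = 0.499), with an interval from −0.16 to 0.06. Its sign was positive, at 0.03, with library totals as the only scaling.

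**Figure D2:**
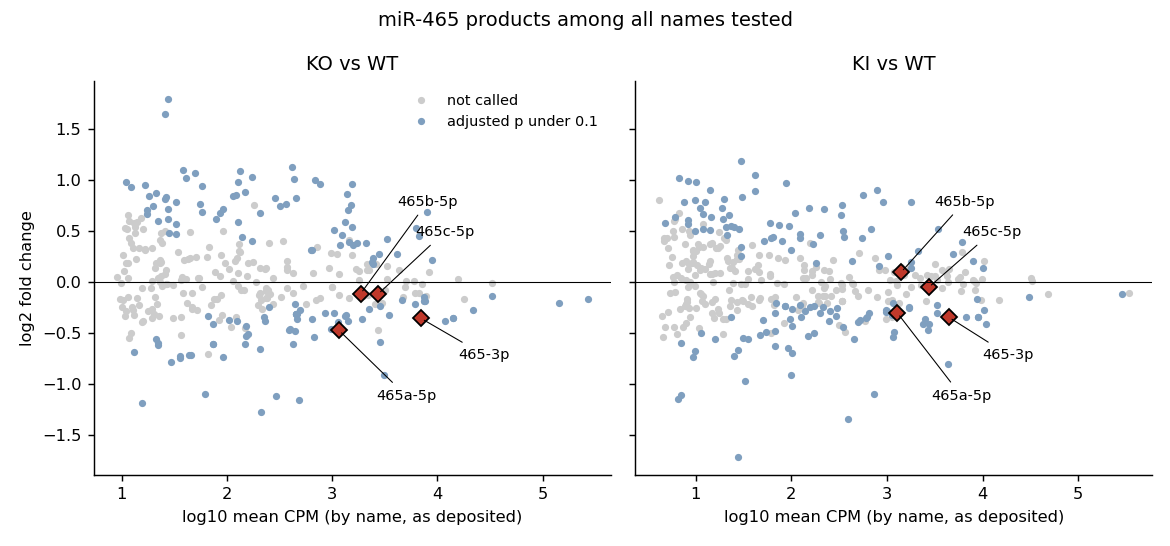
Log2 fold change of KO against WT (left) and KI against WT (right) on the log10 of the mean CPM by deposited name, for all 334 and 387 names tested. Each point is 1 name, blue points have an adjusted p below 0.1, and the diamonds are the 4 products. In both panels miR-465-3p and miR-465a-5p lie below 0, while miR-465b-5p and miR-465c-5p lie nearer to 0.

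The size of the KO effect was then set against that of the KI effect in 1 fit over the 4 groups. The difference of log2 fold changes, KO minus KI, was −0.01 (SE 0.075, edgeR adjusted p = 0.939) for miR-465-3p. For miR-465a-5p it was −0.18 (SE 0.095, edgeR adjusted p = 0.372), with an interval from −0.37 to 0.01. For miR-465b-5p it was −0.22 (SE 0.14, edgeR adjusted p = 0.481), and for miR-465c-5p −0.07 (SE 0.087, edgeR adjusted p = 0.69). None of the 4 products was called, against a background of 0% of 421 names by edgeR. Among all names 67 had an unadjusted p under 0.05, and DESeq2 also called 0. Without KI replicate 2, 26 names were called, and without WT replicate 1 of batch 2, 1 name was called, but none of the products in either case.

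Because the products moved by unequal amounts, the make-up of the 5p reads differed between genotypes. The ratio of 2 names within a library does not depend on how libraries are scaled, and it was tested by a two-sided exact permutation test over libraries. The tests on 5p ratios and on the family arm ratio, 12 in all, were added after the values had been seen, and their p-values are adjusted over these 12.

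miR-465a-5p made up 36.2%, 38.4%, 35.2%, 34.2% and 36.6% of the 5p reads, counted per locus, in the WT libraries of batch 1. In KO it made up 32.3%, 30.4%, 33.2%, 29.7% and 27.6%. The highest KO share lay below the lowest WT share. In WT of batch 2 its share ran from 40.3% through a median of 40.7% to 41.3%, and in KI from 34.4% through 35.8% to 37.1%. These groups did not overlap either.

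The ratio of miR-465c-5p to miR-465a-5p was 1.05 ± 0.0795 (SD, n = 5) for WT libraries against 1.35 ± 0.133 (SD, n = 5) for KO. The groups did not overlap, and the exact permutation p was 0.00794, the smallest that 5 against 5 libraries can give (adjusted p = 0.0136). In batch 2 this ratio was 0.979 ± 0.027 (SD, n = 6) for WT libraries against 1.17 ± 0.0399 (SD, n = 6) for KI, with no overlap. The exact permutation p was 0.00216, the smallest for 6 against 6 (adjusted p = 0.00866). Thus miR-465c-5p rose relative to miR-465a-5p in both mutants, by 0.36 in KO and 0.25 in KI on the log2 scale.

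The ratio of miR-465b-5p to miR-465a-5p rose too. It went from 0.718 ± 0.0589 (SD, n = 5) for WT libraries to 0.925 ± 0.121 (SD, n = 5) for KO, and the ranges overlapped by a little (exact permutation p = 0.0159, adjusted p = 0.0238). In batch 2 it went from 0.476 ± 0.0249 (SD, n = 6) for WT libraries to 0.626 ± 0.0625 (SD, n = 6) for KI without overlap (exact permutation p = 0.00216, adjusted p = 0.00866). On the log2 scale these rises were 0.36 and 0.39.

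The ratio of miR-465b-5p to miR-465c-5p, which differ by C13U alone, moved less. It was 0.682 ± 0.0561 (SD, n = 5) for WT libraries against 0.684 ± 0.0594 (SD, n = 5) for KO (exact permutation p = 0.905, adjusted p = 0.905). In batch 2 it was 0.487 ± 0.0357 (SD, n = 6) for WT libraries against 0.537 ± 0.0521 (SD, n = 6) for KI (exact permutation p = 0.0823, adjusted p = 0.0987), and the ranges overlapped.

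**Figure D3:**
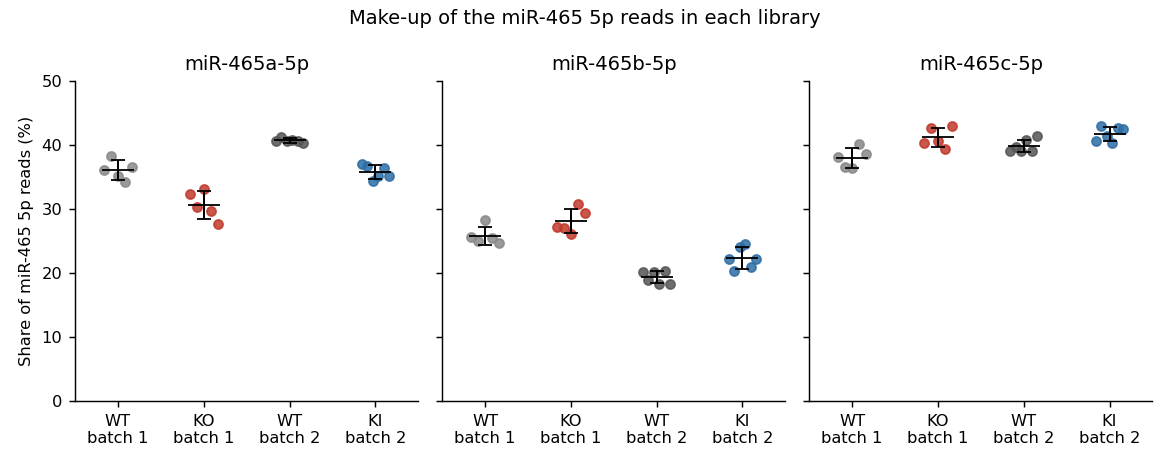
Share in percent (y axis, from 0 to 50) of miR-465a-5p, miR-465b-5p and miR-465c-5p in the 5p reads of the family, counted per locus. Points are libraries, the bar is the mean and the whiskers are 1 SD, with 5 libraries per group in batch 1 and 6 in batch 2. The miR-465a-5p share is lower in all KO and KI libraries than in all WT libraries of their batch.

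The arms were compared next, since both strands of a hairpin leave 1 precursor. The ratio of miR-465-3p to miR-465a-5p was 5.87 ± 0.586 (SD, n = 5) for WT libraries against 6.39 ± 0.933 (SD, n = 5) for KO (exact permutation p = 0.341, adjusted over 3 comparisons p = 0.368). In batch 2 it was 3.5 ± 0.161 (SD, n = 6) for WT libraries against 3.41 ± 0.214 (SD, n = 6) for KI (exact permutation p = 0.368, adjusted p = 0.368). In both cases the groups overlapped, and a difference was not shown. The numerator holds 3p reads of all 5 loci, so this is not the arm ratio of the miR-465a hairpin alone.

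Against all 5p reads of the family, miR-465-3p stood at 2.12 ± 0.18 (SD, n = 5) for WT libraries against 1.94 ± 0.174 (SD, n = 5) for KO, with overlap (exact permutation p = 0.135, adjusted p = 0.147). In KI it was lower than in WT, at 1.22 ± 0.0954 (SD, n = 6) against 1.43 ± 0.0727 (SD, n = 6), with no overlap (exact permutation p = 0.00216, adjusted p = 0.00866). The 3p product thus fell in KI relative to the summed 5p strands, and its ratio to miR-465a-5p did not pass the test.

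The family also differed between batches of the same genotype, and this sets a scale for the values above. Between the WT groups, miR-465-3p fell by 0.72 on the log2 scale from batch 1 to batch 2 (SE 0.054, edgeR adjusted p = 4.57e-08) and miR-465b-5p fell by 0.58 (SE 0.089, edgeR adjusted p = 6.61e-05). miR-465a-5p, at 0.02 (SE 0.078, edgeR adjusted p = 0.878), and miR-465c-5p, at −0.08 (SE 0.065, edgeR adjusted p = 0.309), did not pass the test. So 2 of 4 products were called, against 56.7% of all names called between batches, 29.8% lower and 26.9% higher. With library totals as the only scaling, which moved the median of all names to −0.34, all 4 products were called lower.

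The make-up of the 5p reads and the arm ratio followed the batch as well. The ratio of miR-465-3p to miR-465a-5p was 5.87 in WT of batch 1 and 3.5 in WT of batch 2, without overlap (exact permutation p = 0.00433, adjusted p = 0.013). The ratio of miR-465b-5p to miR-465a-5p was 0.718 and 0.476, also without overlap (exact permutation p = 0.00433, adjusted p = 0.00866). The ratio of miR-465c-5p to miR-465a-5p overlapped between the batches (exact permutation p = 0.0519, adjusted p = 0.0693). Levels of the products in KO and KI can therefore not be set side by side directly, and only the comparisons within a batch are used for genotype.

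The neighbours of the family were taken by position alone, as all other names with a locus within 100000 bases of a member. They were 28 names, all on the minus strand of chromosome X, of the miR-743, miR-742, miR-883, miR-471, miR-741, miR-463, miR-880, miR-878, miR-881, miR-871, miR-470 and miR-465d hairpins. In KO, 24 were tested, 17 were called lower and 0 higher, beside 20.7% lower among all names, and their median log2 fold change was −0.32 (range −0.72 to 0.19) against 0.01 for all names. In KI, 24 were tested, 17 were called lower and 0 higher, beside 19.9% lower among all names, and the median was −0.31 (range −0.74 to 0.07) against 0.00. With library totals as the only scaling, 7 were called lower and 1 higher in KO, and 12 lower and 0 higher in KI. miR-465-3p and miR-465a-5p were thus among a run of names that were lower in both mutants, and miR-465b-5p and miR-465c-5p were among those that did not pass.

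Several abundant neighbours were called lower in both mutants, as miR-465-3p was. This did not hold for all of them. miR-871-3p, at a mean of 1688 CPM in batch 1 and 2514 in batch 2, was at 0.13 in KO and was not called there. miR-741-3p, the most abundant, moved by −0.38 on the log2 scale in KO (SE 0.06, edgeR adjusted p = 0.00161) and by −0.41 in KI (SE 0.042, edgeR adjusted p = 1.17e-05). miR-880-3p gave −0.58 in KO and −0.41 in KI, miR-470-5p −0.38 and −0.54, and miR-881-3p −0.47 and −0.33, all called. Of the miR-743 and miR-883 hairpins, miR-743a-3p gave −0.23 and −0.47, miR-743b-3p −0.26 and −0.41, miR-743b-5p −0.34 and −0.26, miR-883a-3p −0.36 and −0.31, and miR-883b-3p −0.36 and −0.32, all called in both. miR-463-5p (−0.30 in KO, −0.28 in KI) and miR-878-5p (−0.27 and −0.30) were called in both as well.

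The other neighbours were called in 1 mutant or in neither. miR-881-5p (−0.34 in KO, −0.19 in KI), miR-871-5p (−0.36, −0.14), miR-741-5p (−0.38, −0.14), miR-470-3p (−0.72, −0.36), miR-471-3p (−0.56, −0.19) and miR-471-5p (−0.21, −0.01) were called in KO. miR-883a-5p (−0.26 in KO, −0.24 in KI), miR-463-3p (−0.11, −0.29), miR-742-3p (0.19, −0.74), miR-883b-5p (0.04, −0.34), miR-878-3p (0.15, −0.44) and miR-871-3p (0.13, −0.36) were called in KI. miR-743a-5p (−0.27, 0.07) was called in neither. None of the neighbours tested was called for a difference between the KO and the KI effect in the fit over 4 groups. Without KI replicate 2, miR-878-3p and miR-871-3p were, with an edgeR adjusted p of 0.0622 each, and they are named here after their values were seen.

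**Figure D4:**
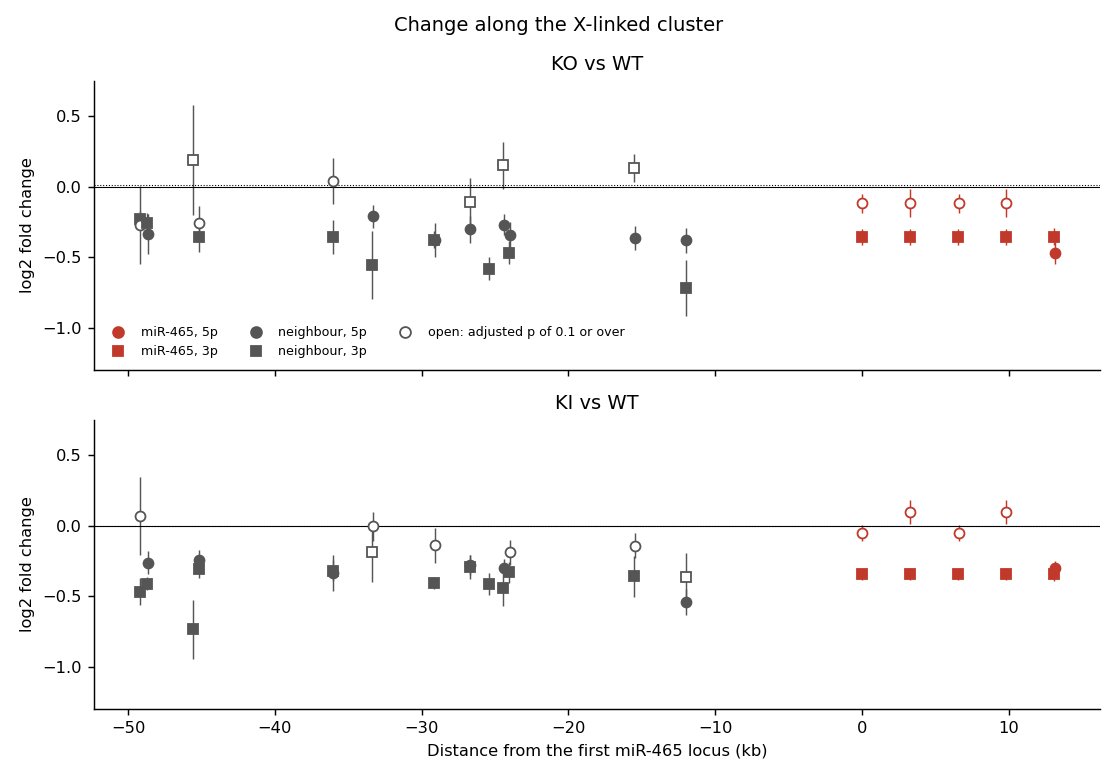
Log2 fold change with its standard error for each locus of the family (red) and of its neighbours (grey) by distance in kb from the lowest coordinate of the family, for KO against WT (top) and KI against WT (bottom). Circles are 5p and squares 3p strands, open symbols have an adjusted p of 0.1 or over, the dotted line is the median of all names, and names with 2 loci appear at both. Transcription runs from right to left, and filled symbols lie below 0 in both panels.

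Likeness of names was described by the correlation, over libraries, of log2(CPM + 1) taken as a deviation from the mean of its own group, with no test. These points share library scaling and depth. miR-465a-5p had an r with miR-465c-5p of 0.208 over the 10 libraries of batch 1 and of 0.827 over the 12 of batch 2. With miR-465b-5p it was 0.401 and 0.761, and with miR-465-3p −0.611 and 0.247. Among 22 neighbours the most alike to miR-465a-5p by the lower of its 2 values were miR-883a-3p (0.650 and 0.670), miR-881-3p (0.493 and 0.635) and miR-741-5p (0.471 and 0.608). Among 277 other names they were miR-669d-5p (0.693 and 0.801), miR-100-5p (0.680 and 0.701) and miR-21a-5p (0.673 and 0.712).

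Markers of the cell types that the preparation could hold were summed in each library, and their part in the values of the family was not tested. The germ cell list (miR-34b-5p, miR-34c-5p and miR-449a-5p, all 3 present) ran from 185908 to 226650 CPM in WT and from 159730 to 215014 in KO of batch 1. In batch 2 it ran from 357481 to 411310 in WT and from 330493 to 378503 in KI, so these names were abundant in every library. Within this list miR-34b-5p was called lower in KO (−0.27, edgeR adjusted p = 0.0643), and so was miR-34c-5p in KO (−0.21, edgeR adjusted p = 0.081) and in KI (−0.11, edgeR adjusted p = 0.0271). miR-449a-5p was called in neither mutant. In bulk RNA, fewer cells of a type and less RNA per cell cannot be told apart.

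The leukocyte list, of which 4 of 6 names are in the table, ran from 4005 to 5007 CPM in WT and from 4297 to 6080 in KO, and from 2905 to 3911 in WT and 3625 to 5851 in KI. All 4 names rose in KI, by 0.52 (miR-142a-3p), 0.44 (miR-142a-5p), 0.90 (miR-150-5p) and 0.97 (miR-223-3p) on the log2 scale. In KO, miR-150-5p rose by 1.64 (edgeR adjusted p = 0.0273) and miR-223-3p by 0.68 (edgeR adjusted p = 0.0892), and the miR-142a arms did not pass the test. The gonadal somatic list (miR-202, both arms) ran from 68.9 to 195 and from 45 to 109 CPM in batch 1, and from 114 to 187 in WT and 79.3 to 108 in KI. Both miR-202 arms were called lower in KI, at −0.70 (5p, edgeR adjusted p = 0.00393) and −0.73 (3p, edgeR adjusted p = 0.00056). In KO they were at −0.71 (5p, edgeR adjusted p = 0.104) and −0.52 (3p, edgeR adjusted p = 0.259), and neither passed the threshold.

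The vessel and smooth muscle list, with 3 of 5 names in the table, ran from 179 through a median of 227 to 409 CPM in WT and from 213 through 390 to 451.2 CPM in KO. In batch 2 it ran from 250 through 274 to 439 CPM in WT and from 216 through 323 to 541 CPM in KI. miR-143-3p was called higher in KO (1.02) and KI (0.58), as was miR-145a-5p (0.57 and 0.52), and miR-126a-3p in neither. The striated muscle list ran from 8.10 to 29.4 CPM in WT and from 11.5 to 146 in KO of batch 1. In batch 2 it ran from 42.5 to 758 in WT and from 38.0 to 523 in KI. miR-1a-3p was called higher in KO (1.79, edgeR adjusted p = 0.0417) but not called in KI (−0.49, edgeR adjusted p = 0.518). miR-133a-3p was not tested in KO and not called in KI (−0.49, edgeR adjusted p = 0.504). The red blood cell list lay between 10.4 and 131 CPM over all groups. Only miR-451a of this list was tested, and it was called in neither mutant. Of the defining markers, miR-206-3p had 0 counts and miR-144-3p 1 count in the whole table.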

How the data were processed

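Small RNA of round spermatids was sequenced in 22 libraries. The deposited table holds raw counts per miRNA name, made by the authors with cutadapt 3.4, Bowtie2 2.4.2 (local mode, up to 100 alignments per read, GRCm38/mm10) and featureCounts (Subread 2.0.1, stranded, miRBase annotation), with duplicates kept. Reads that align to several loci were counted at each. Totals ranged from 559957 to 3239357.

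Groups came from the labelled genotype and batch. Counts were fitted with edgeR 4.0.16 (R 4.3.3): filterByExpr, TMM scaling, quasi-likelihood F-test, Benjamini-Hochberg adjustment over all names tested, called below 0.1. KO and KI were each fitted with the WT of their own batch. The comparison of the WT groups and that of KO minus KI took libraries of both batches. Printed CPM levels used 1 set of TMM factors over the 22 libraries. The study's tool, DESeq2 (1.42.0 here), was an alternative. Ratios were tested by exact permutation (scipy 1.17.1). Intervals are 2 SE on either side. The edgeR script was tested on simulated data with a log2 change of 1 in 200 names. It recovered 94% of them in KO, 95% in KI, 95.5% between WT groups and 78% in KO minus KI. Of the calls, 2.05% to 6.86% were false. The changes of the family are smaller than 1, and recovery at their size was not tested.

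Names given are the 6 members, neighbours within 100000 bases with a mean of at least 10 CPM in a batch, names of the same seed, marker lists and the 3 names most alike, apart for neighbours and others. Members and lists were chosen with earlier results of these data known. A RefSeq sequence matched 6 of 6 members and 1675 of 1966 names.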

Additional observations from a re-analysis of the deposited data

Results flagged for a closer look

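Of 36 groups of values of the family screened for a library far from the rest of its group, 2 had one, where chance alone gives about 1 in 20 groups, or 1.8. Both concern the library KO replicate 5, called it below. The screen took distances on the log2 scale. In miR-465a-5p it lay low, at 842 CPM per locus against 965 to 1018 in the other KO libraries. That is 0.717 of the whole log2 range away from its nearest neighbour. In the ratio of miR-465-3p to miR-465a-5p this library lay high, at 8.01 against 5.74 to 6.32, 0.711 of the whole log2 range away. Without it the ratio differed between KO and WT by 0.03 on the log2 scale (exact permutation p = 0.683), against 0.12 with it, and miR-465a-5p stayed called. The 2 values share the miR-465a-5p count of this library.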

How the results depend on the processing

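miR-465-3p and miR-465a-5p were called lower in KO and in KI under all 9 alternatives in each comparison and with any single library left out. Over both kinds of setting their log2 fold changes ran from −0.41 to −0.25 and from −0.53 to −0.36 in KO, and from −0.37 to −0.26 and from −0.33 to −0.22 in KI.

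Signs changed for values near 0, and the cause was not tested. With library totals as the only scaling they were 0.033 for miR-465c-5p and 0.081 for miR-471-5p in KI, 0.0017 for miR-463-3p in KO, −0.31 for miR-465a-5p between WT groups, and 0.013 for miR-465-3p in KO minus KI. miR-471-5p in KI was 0.00998 with DESeq2-type size factors, 0.00018 without a filter, 0.0013 with a 10 CPM filter and 0.012 with counts divided by loci. Without a filter, miR-883b-5p in KO was −0.016 and miR-465c-5p between WT groups 0.0093. miR-465a-5p between WT groups was −0.021 with names of equal counts kept once and −0.0241 with counts divided by loci. Products called between WT groups rose from 2 to 4 with library totals. miR-465c-5p was called there with library totals (−0.41), with equal names kept once (−0.13), with counts divided by loci (−0.13) and without WT replicate 4 of batch 2 (−0.13).

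The ratio of 3p to 5p reads in KO was 0.12 (log2 difference) with miR-465a, −0.24 with miR-465c (exact permutation p = 0.0159), −0.24 with miR-465b (p = 0.0635, exact permutation) and −0.12 with all 5p reads. In KI it was −0.041, −0.29, −0.43 and −0.23, where the last 3 had an exact permutation p of 0.00216. With 1 library left out, the miR-465a ratio ran from 0.033 to 0.17 in KO (exact permutation p = 0.0635 without WT replicate 4).

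With 1 library left out, values that changed sign ran from −0.17 to 0.024 (miR-465-3p, KO minus KI), −0.048 to 0.055 (miR-465a-5p, WT groups), −0.047 to 0.051 (miR-465b-5p over miR-465c-5p, KO), −0.021 to 0.14 (miR-883b-5p, KO), −0.22 to 0.0036 (miR-463-3p, KO), −0.16 to 0.47 (miR-742-3p, KO), −0.068 to 0.0504 (miR-471-5p, KI) and −0.13 to 0.17 (miR-743a-5p, KI). Neighbours called ran from 13 to 18 in KO and 15 to 17 in KI.

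The labels do not say whether same-numbered libraries were prepared together, and the main tests assumed no pairing. Correlations of their deviations were −0.203 to 0.303 in batch 1 and −0.118 to 0.558 in batch 2. Not every library correlated best with its own number (2 of 5 and 3 of 6 did). With a replicate block, 124 names in KO and 165 in KI were called, the products called stayed 2, 2 and 0, and in KO minus KI 25 names were called, among them miR-878-3p and miR-871-3p. The paired sign-flip test over same-numbered libraries gave −0.041 with an exact p of 0.0313 for the miR-465a ratio in KI. This is the smallest p that 6 pairs can give, while the unpaired test of this ratio did not pass (exact permutation p = 0.368). For miR-465b-5p over miR-465a-5p in KO the sign-flip test gave an exact p of 0.125. For miR-465c-5p over miR-465a-5p in KO it gave 0.0625, below which 5 pairs cannot go.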
